A study of Homo sapiens with 6 samples.

Results

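Erythropoietin receptor signalling through JAK2 and STAT5 was followed in REH cells after knockdown of the ETV6/RUNX1 fusion. The 7 genes described are the receptor EPOR, the kinase JAK2, the transcription factors STAT5A and STAT5B, and 3 genes that STAT5 is known to induce, CISH, SOCS2 and PIM1. Their probes were chosen by name, as every catalogue probe of the array whose RefSeq accession maps to one of these genes, with no threshold on a measured value. This gave 7 probes, 1 for each gene and each printed in 1 spot, out of 34134 catalogue probes and 57176 probes of all kinds, or 7 of 19721 gene symbols matched on the array. REH cells come from a B-cell precursor acute lymphoblastic leukemia (BCP-ALL), carry the ETV6/RUNX1 fusion and, per the study, have lost their other ETV6 allele. RNA was hybridised to 6 one-color arrays. In the control group, 3 arrays, cells received a non-targeting short hairpin RNA (shRNA), and in the knockdown group, 3 arrays, an shRNA against the ETV6 portion of the fusion transcript. Both groups share the lentiviral vector with a GFP gene and the sort for GFP-positive cells, and the control shRNA was, per the methods, a second ETV6 hairpin that did not hit the fusion. Each group rests on 1 hairpin in 1 cell line, so that silencing of the fusion and other effects of the hairpin cannot be told apart.

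Erythropoietin binds EPOR, a receptor without enzyme activity of its own that carries JAK2 on its intracellular part. Activated JAK2 phosphorylates the receptor and STAT5A and STAT5B, which pair, enter the nucleus and bind DNA at the motif TTCNNNGAA. CISH and SOCS2, 2 of the genes induced in this way, encode proteins that dampen the same receptors, while PIM1 encodes a kinase that favours survival. The pathway drives red cell production, and EPOR has been described as a target of ETV6/RUNX1 in BCP-ALL, where rearranged EPOR and mutated JAK2 are known from other subtypes. The arrays measured RNA, and neither phosphorylation nor protein was measured.

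By the flag that the scanner software sets, all 7 probes stood well above background on each of the 6 arrays, and all 7 passed the filter on low values. Levels are on a generalised log2 scale that equals log2 at high intensity and compresses differences at low intensity, and a change is always knockdown minus control. A probe is called where limma's p, adjusted by the Benjamini-Hochberg method over the 27490 retained probes, is under 0.05. In this comparison 478 probes (1.74%) were called, 352 lower (1.28%) and 126 higher (0.458%) in the knockdown. An exact two-sided permutation test of a single probe, 3 arrays against 3, cannot give a p under 0.1. The study speaks of biological triplicates and the labels give no more, so p-values measure the spread between these arrays. Pairwise correlations between arrays ran from 0.986 to 0.996 across probes. All arrays lie on 1 slide and were read in 1 scan, with control replicates 1 and 2 in row 1 and control replicate 3 and the 3 knockdown replicates in row 2.

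The study reports silencing of the fusion in REH cells by this hairpin, with western blot and RT-qPCR of its protein and transcript. On the arrays, the targeted gene was examined first. The ETV6 probe A_33_P3356325 read 7.91, 8.05 and 8.37 in control replicates 1 to 3 and 7.49, 7.45 and 7.28 in knockdown replicates 1 to 3. The groups did not overlap, but the difference of -0.70 on the log2 scale (SE 0.14) was not called (limma adjusted p = 0.0513). It was called in 2 of 17 alternatives, with the scanner software's flag as the filter (0.0461) and with an intensity trend and robust prior (0.0436), and adjusted p reached 0.288 in the others. The position of this probe within ETV6 was not analysed, so it may or may not read the fused part of the gene. A second ETV6 probe did not pass the filter, and none of the 5 RUNX1 probes was called (log2 fold changes from -0.26 to 0.03).

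Among the 7 genes, SOCS2 and STAT5A fell in the knockdown, and none of the 7 was called higher. These 2 of 7 stand beside the 1.74% of all retained probes called. CISH was lower and STAT5B higher on every knockdown array than on any control array, and neither passed the test, although CISH did with the replicate number as a block. EPOR, JAK2 and PIM1 overlapped between the groups. Thus the groups did not overlap for 4 of the 7 genes, 3 lower and 1 higher, against 18.9% of all probes measured on 6 arrays (9.87% lower and 9.02% higher). Over the 7 genes the median difference was -0.07 on the log2 scale, and over all retained probes it was -0.00154. In bulk RNA, fewer cells of a type and less RNA per cell cannot be told apart.

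**Figure D1:**
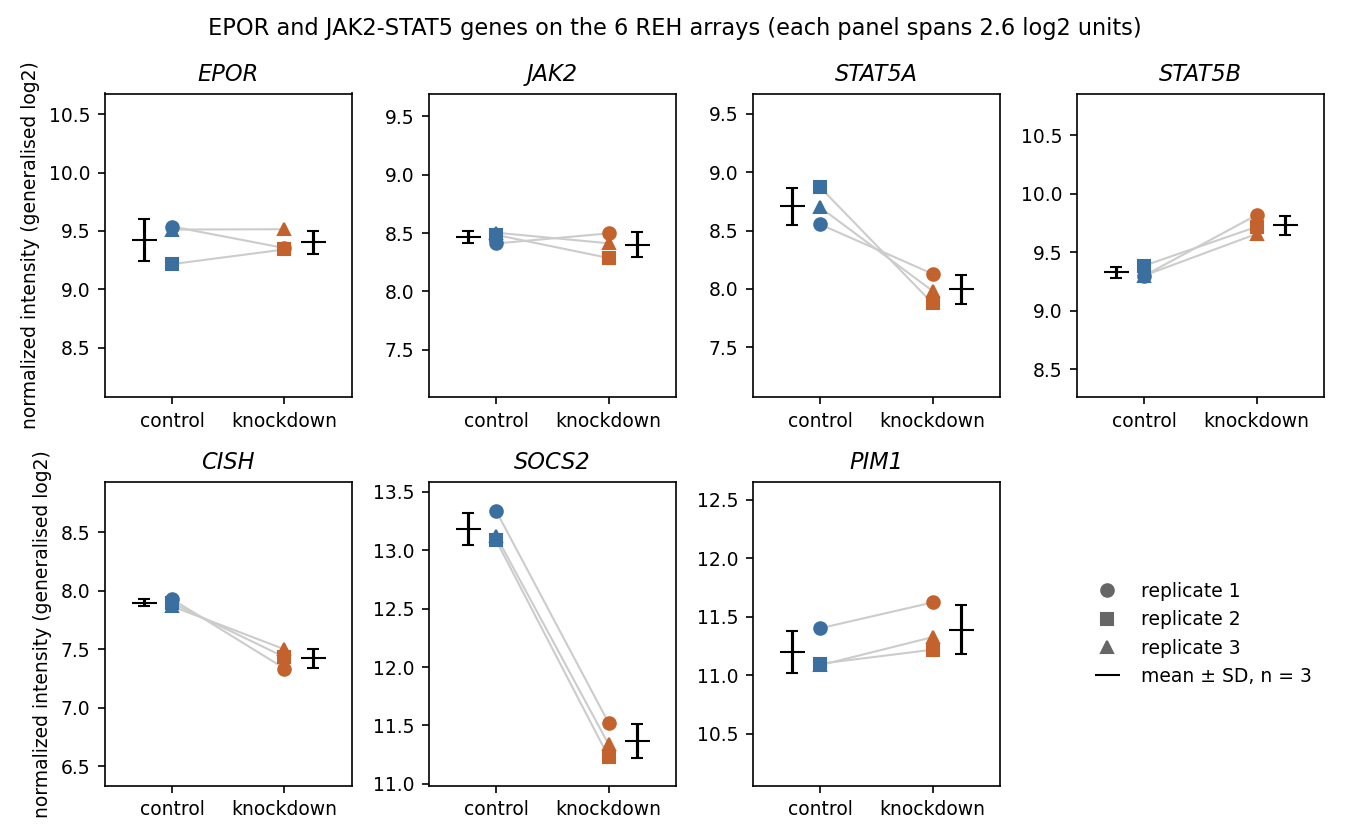
Generalised log2 value of each of the 7 probes on the 6 arrays, with points for the replicates of the control and knockdown groups bars for the group mean and SD (n = 3) and grey lines between replicates of the same number. SOCS2 shows the widest gap, from a mean of 13.18 to 11.37, whereas the points of EPOR, JAK2 and PIM1 overlap between groups.

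**Figure D2:**
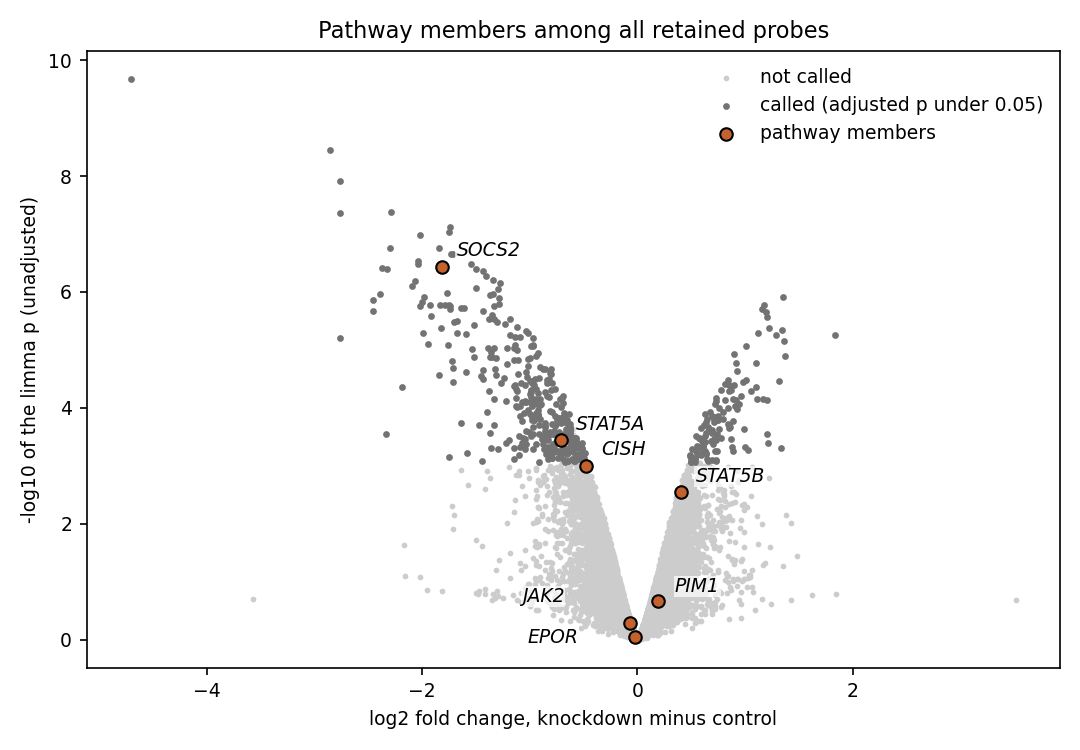
Log2 fold change, knockdown minus control, on the x axis against -log10 of limma's unadjusted p on the y axis for the 27490 retained probes, with the 7 genes named. SOCS2 and STAT5A lie among the called probes, and CISH and STAT5B lie below them on the y axis.

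At the level of the receptor, no difference passed the test. EPOR (probe A_23_P367899) read 9.54, 9.22 and 9.51 in control replicates 1 to 3 and 9.35, 9.34 and 9.51 in knockdown replicates 1 to 3. All 3 knockdown values fell within the range of the controls. The means were 9.42 ± 0.18 and 9.40 ± 0.10 (SD, n = 3 each), a log2 fold change of -0.02 (SE 0.12) with a 95% confidence interval from -0.30 to 0.26 (limma adjusted p = 0.965, exact permutation p = 0.9). Changes of a size within this interval could not be told from no change with 3 arrays a group. The interval is before adjustment over all retained probes, so larger changes can also miss a call. STAT5B, at 0.40 with a smaller SE (0.10), did so. The sign of the small EPOR difference turned to higher in the knockdown under 6 of the 17 alternatives. Its value was up to 0.069 in 5 of them and 0.30 under the spike-in scaling, which moved the median of all probes by 0.32.

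The RefSeq promoter window of EPOR is shown since EPOR is described as a target of the fusion, whose RUNX1 part binds DNA at TGTGGT. The window covers the 250 bases before the transcription start in GRCh38.p14, chr19:11384315-11384564, and is printed 5′ to 3′ along the gene, on the minus strand. The capitals mark TTATCT, the reverse complement of AGATAA, a motif that GATA1 and its relatives bind, 78 bases before the start.
EPOR: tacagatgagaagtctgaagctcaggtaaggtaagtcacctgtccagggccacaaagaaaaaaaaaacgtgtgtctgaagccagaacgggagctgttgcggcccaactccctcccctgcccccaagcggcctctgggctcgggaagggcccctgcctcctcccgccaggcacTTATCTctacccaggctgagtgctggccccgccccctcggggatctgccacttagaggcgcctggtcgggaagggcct
Searched on both strands, AGATAA is found in 9.17% of the 35116 promoter windows of this length, TGTGGT in 11% and TTCNNNGAA in 6.57%. Neither TGTGGT nor TTCNNNGAA occurs in the EPOR window. A match is a description of letters and not a site of binding, and no match says only that these letters are not in this window.

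JAK2, the kinase bound to EPOR, overlapped between groups as well. Its probe (A_33_P3878772) read 8.41, 8.48 and 8.50 in the controls and 8.50, 8.29 and 8.41 in the knockdown, by replicate. Knockdown replicate 1 stood at the upper end of the control values and knockdown replicate 2 below all of them. The log2 fold change was -0.07 (SE 0.10, 95% confidence interval -0.30 to 0.16, limma adjusted p = 0.831, exact permutation p = 0.5). Scaling on the processed signal turned it to 0.030, and scaling on the spike-in probes turned it to 0.25, below that shift of all probes.

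Of the 2 STAT5 genes, which encode closely related factors and lie next to each other on opposite strands, STAT5A fell and STAT5B did not pass the test. STAT5A (probe A_23_P207367) read 8.55, 8.87 and 8.70 in control replicates 1 to 3 and 8.13, 7.88 and 7.98 in knockdown replicates 1 to 3. Every knockdown array lay below every control array. STAT5A fell by 0.71 on the log2 scale (SE 0.12, 95% confidence interval of the log2 fold change -0.99 to -0.43), from 8.71 ± 0.16 to 7.996 ± 0.13 (SD, n = 3 each), a 1.64-fold difference with limma's adjusted p = 0.0286. The exact permutation p was 0.1, the smallest possible. The call held in 9 of 17 alternatives. It was lost with the processed signal (adjusted p = 0.0624), without a filter on dim probes (0.0910) and with the spike-in scaling (0.281). The same held with the row of the slide as a term, a contrast that rests on 1 control array. The call was also lost without control replicate 2 (0.138) or 3 (0.103) and without knockdown replicate 2 (0.124) or 3 (0.122). The difference was below 0 under all 17, at -0.39 with the spike-in scaling and from -0.80 to -0.61 in the others.

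STAT5B (probe A_33_P3380867) read 9.30, 9.39 and 9.30 in the controls and 9.82, 9.72 and 9.66 in the knockdown. All knockdown arrays lay above all control arrays, and the knockdown replicate was above the control replicate of its number in 3 of 3 pairs. The log2 fold change was 0.40 (SE 0.10, 95% confidence interval 0.18 to 0.62), from 9.33 ± 0.05 to 9.73 ± 0.08 (SD, n = 3 each), and the probe was not called (limma adjusted p = 0.103, exact permutation p = 0.1). None of the 17 alternatives called it, where its difference ran from 0.36 to 0.72 on the log2 scale and its adjusted p from 0.0519 to 0.499. The difference between both log2 values on an array, STAT5A minus STAT5B, changed by -1.11 between the groups, from a range of -0.75 to -0.52 in the controls to one of -1.84 to -1.67 in the knockdown. Since the values come from 2 probes, only the change of this difference can be read, not its level, and its separation by group follows from that of both genes.

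Of the induced genes, SOCS2 had the largest difference among the 7. SOCS2, an inhibitor of cytokine and growth hormone signalling, was read by probe A_23_P128215 at 13.34, 13.08 and 13.12 in control replicates 1 to 3 and at 11.52, 11.23 and 11.34 in knockdown replicates 1 to 3. The gap between the groups was far wider than the spread within either. SOCS2 fell by 1.82 on the log2 scale (SE 0.12, 95% confidence interval of the log2 fold change -2.09 to -1.54), or 3.52-fold, from 13.18 ± 0.14 to 11.37 ± 0.15 (SD, n = 3 each), with limma's adjusted p = 0.000588. The difference was similar in size in each numbered pair, at -1.81, -1.85 and -1.78. SOCS2 was called in 17 of 17 alternatives, among them the slide row term, which rests on 1 control array. Its difference there ran from -1.90 to -1.50 on the log2 scale and its adjusted p reached 0.00799 at most. By size of the decrease it ranked 22 among 13645 gene symbols, each taken at its main probe, and 14 by lowest p. The transcript SOCS2-AS1, an antisense RNA of the SOCS2 locus that has a probe of its own and was chosen after its values were seen, read 9.02, 8.84 and 8.77 in the controls and 7.72, 7.29 and 7.67 in the knockdown. It fell by 1.32 on the log2 scale (SE 0.14), or 2.49-fold, with limma's adjusted p = 0.00361. No promoter window for SOCS2 was in the sequence table used.

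CISH, the first described member of the SOCS family and a feedback inhibitor of receptors that use STAT5, was read by probe A_23_P144096 at 7.93, 7.90 and 7.87 in the controls. In knockdown replicates 1 to 3 it read 7.34, 7.43 and 7.50, all below the lowest control. The log2 fold change was -0.48 (SE 0.09, 95% confidence interval -0.69 to -0.26), a 1.39-fold difference between 7.90 ± 0.03 and 7.42 ± 0.08 (SD, n = 3 each). CISH was not called (limma adjusted p = 0.0542, exact permutation p = 0.1). With the replicate number as a block, a fit that called 3.78% of all probes and 3 of the 7 here, it was called lower (adjusted p = 0.0476), as it was with the scanner software's flag as the filter (0.0494). In the other 15 alternatives it was not called, with adjusted p up to 0.60 under the spike-in scaling, where its log2 fold change was -0.16 beside the median of 0.32 of all probes.

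The RefSeq promoter window of CISH is shown since it holds 4 copies of the STAT5 motif, in capitals. The window is chr3:50611775-50612024 in GRCh38.p14, the 250 bases before the start, printed 5′ to 3′ along the gene, on the minus strand.
CISH: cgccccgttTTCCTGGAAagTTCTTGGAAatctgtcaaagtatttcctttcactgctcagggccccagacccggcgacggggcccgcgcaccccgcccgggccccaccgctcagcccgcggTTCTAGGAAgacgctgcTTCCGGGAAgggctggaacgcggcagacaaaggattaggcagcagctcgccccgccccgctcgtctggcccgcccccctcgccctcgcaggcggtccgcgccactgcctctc
From the distal end these are TTCCTGGAA, TTCTTGGAA, TTCTAGGAA and TTCCGGGAA, which begin 241, 230, 129 and 112 bases before the start. Of the 35116 windows, 6.57% hold TTCNNNGAA at least once, and 5 windows, of 4 genes, hold it 4 times or more. Windows were found for 6 of the 7 genes, 11 windows in all, and TTCNNNGAA occurs in none of those of EPOR, JAK2, STAT5A, STAT5B and PIM1.

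PIM1, a serine/threonine kinase, did not pass the test. Its probe (A_23_P345118) read 11.40, 11.10 and 11.08 in the controls and 11.62, 11.22 and 11.33 in the knockdown. Each knockdown replicate was above the control replicate of its number, but control replicate 1 was above knockdown replicates 2 and 3. The log2 fold change was 0.19 (SE 0.14, 95% confidence interval -0.13 to 0.52), and PIM1 was not called (limma adjusted p = 0.639, exact permutation p = 0.3). It was called in none of the 17 alternatives, and its difference was 0.077 without knockdown replicate 1 and 0.51 with the spike-in scaling. Among the 3 induced genes, 1 thus fell, and the other 2 had log2 fold changes of -0.48 and 0.19 that did not pass the test.

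**Figure D3:**
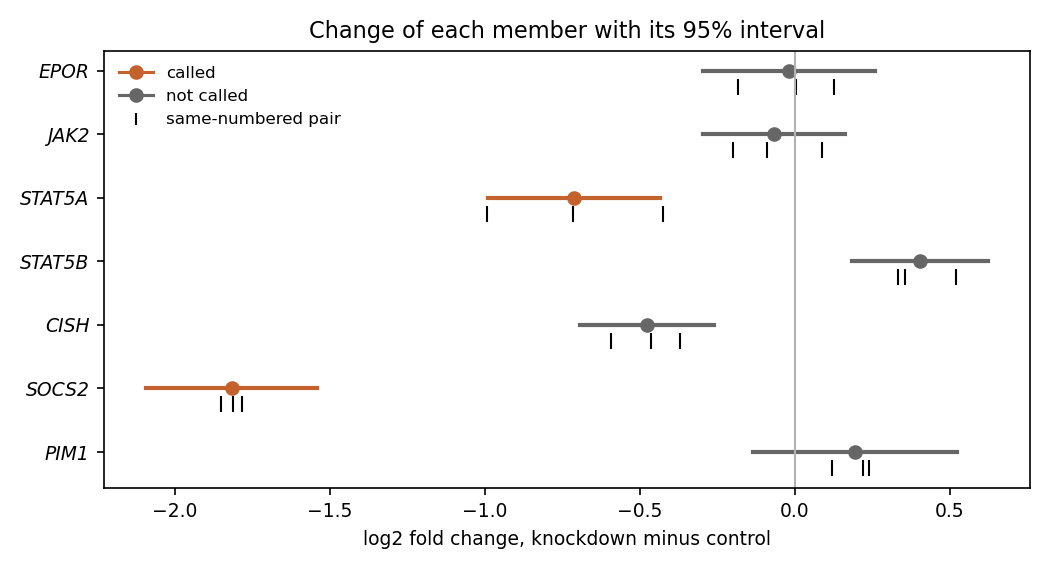
Log2 fold change of each of the 7 probes, knockdown minus control, with its 95% confidence interval from limma, and the difference in each same-numbered pair of replicates as short vertical ticks. The intervals of SOCS2, STAT5A, CISH and STAT5B exclude 0 before adjustment for 27490 probes, and those of EPOR, JAK2 and PIM1 include it.

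Since control replicates 1 and 2 lie in another row of the slide than the other arrays, the differences were also taken within row 2 alone, control replicate 3 against the mean of the 3 knockdown replicates. There the log2 difference was -1.76 for SOCS2, -0.70 for STAT5A, -0.45 for CISH and 0.43 for STAT5B. The remaining genes differed by 0.30 (PIM1), -0.11 (EPOR) and -0.10 (JAK2). The fit with the slide row as a term gives these same differences on 1 control array. Its spread is taken from the other arrays, so its p-values do not measure the spread between control arrays in row 2.

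**Figure D4:**
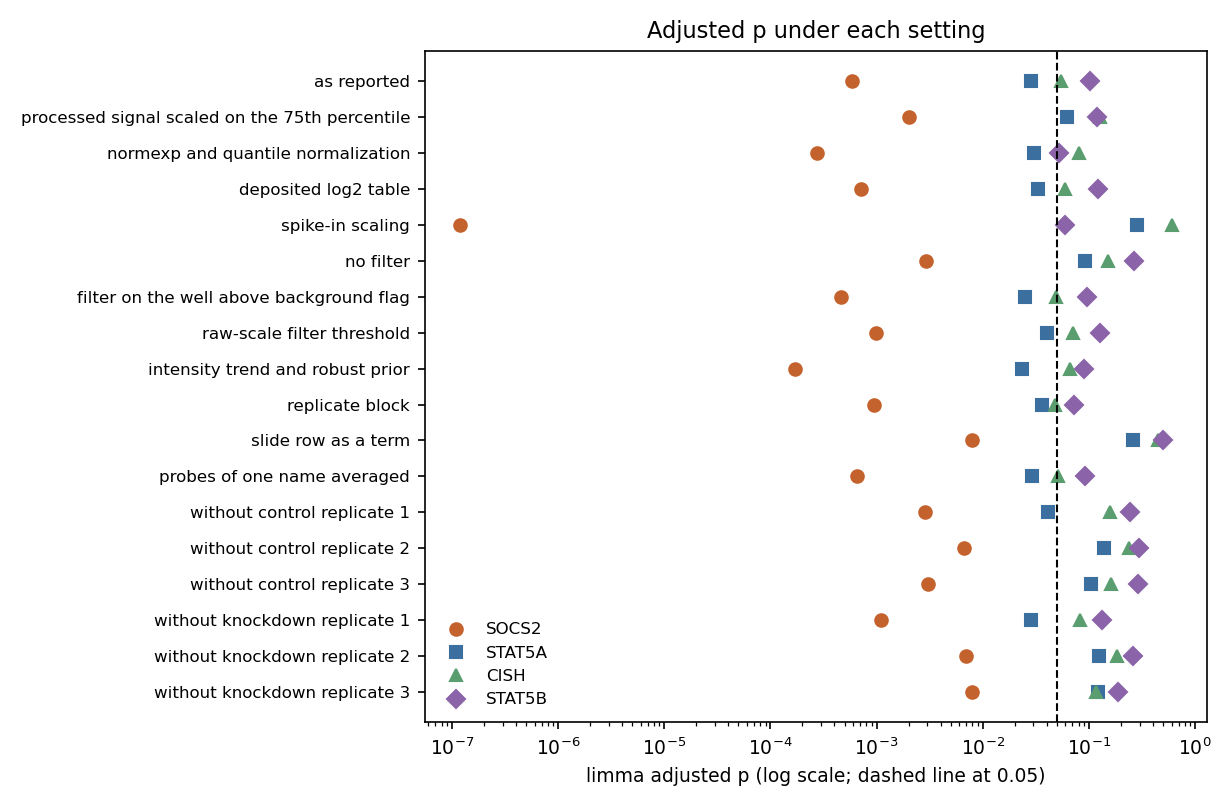
Limma's adjusted p, on a log scale, of SOCS2, STAT5A, CISH and STAT5B as reported and under each of the 17 alternatives, 1 a line, with a dashed line at 0.05. SOCS2 lies left of the line throughout, STAT5A in 9 of the 17, CISH in 2 and STAT5B in none.

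The rest of the pathway was described by 6 lists with 79 genes, of which 62 passed the filter, with 77 probes. Of these probes, 4 (5.19%) were called, beside 1.74% over all retained probes. At the main probe of each gene, that is its retained probe with the highest mean, 35 genes were lower and 27 higher. Over these 62 the median difference was -0.03 on the log2 scale.

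Among 10 ligands of receptors that use JAK2 or STAT5, 2 passed the filter and none was called. EPO itself, the ligand of EPOR, did not pass, nor did TSLP, IL7, IL2, IL3, CSF2, PRL and KITLG. Growth hormone GH1 had a log2 fold change of 0.50 (adjusted p = 0.161), and thrombopoietin THPO one of 0.00 (adjusted p = 0.993).

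Among the other receptors that use JAK kinases, 9 of 14 genes passed the filter and 3 were called, 1 lower and 2 higher. CSF3R, the receptor for granulocyte colony-stimulating factor, read 11.56, 10.84 and 10.81 in the controls and 10.09, 9.20 and 9.18 in the knockdown, and fell by 1.58 on the log2 scale (SE 0.29, limma adjusted p = 0.0391). IL4R, the ligand-binding chain of the interleukin-4 receptor, rose from 9.93, 10.07 and 9.89 to 10.59, 10.74 and 10.82, which is 0.76 on the log2 scale (SE 0.11, limma adjusted p = 0.0131). IL2RG, the common gamma chain shared by several interleukin receptors, was called higher on 1 of its 2 probes (log2 fold change 0.49, limma adjusted p = 0.0421), while the brighter one gave 0.40 (adjusted p = 0.149). For each of these 3 genes the control and knockdown arrays did not overlap on the called probe.

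These 3 genes were called in fewer alternatives than SOCS2. Of 17 alternatives, IL4R was called in 12, CSF3R in 7 and IL2RG in 5. With the processed signal, CSF3R (limma adjusted p = 0.0587) and IL2RG (0.109) were not called, nor were they without a filter (0.122 and 0.120). The IL4R call was lost when control replicate 2 (adjusted p = 0.0512) or 3 (0.0648) or knockdown replicate 2 (0.0707) or 3 (0.0656) was left out. The CSF3R call was lost without any one of the controls (0.0869, 0.106 and 0.0794 for control replicates 1 to 3) or without knockdown replicate 2 (0.159) or 3 (0.172), and that of IL2RG without any one of the 6 arrays (adjusted p from 0.0658 to 0.164). IL3RA, the specific chain of the interleukin-3 receptor, differed by -0.56 on the log2 scale (adjusted p = 0.339), or -0.35 without control replicate 1, and the block by replicate number brought its adjusted p to 0.0345. IL2RA, the alpha chain of the interleukin-2 receptor, passed the filter on probe A_23_P127288. This probe stood well above background on 2 control arrays and on 0 knockdown arrays, its groups overlapped, and it was not called (adjusted p = 0.225). Probe A_24_P230563 of IL2RA, which did not pass, stood well above background on 0 control arrays and on 1 knockdown array. IL2RB, CSF2RA, IL5RA, GHR and PRLR did not pass the filter.

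No member of the other JAKs and STATs was called, with 7 of 8 retained and STAT4 not. The largest differences were those of STAT3, at -0.31 (adjusted p = 0.437), or -0.19 without control replicate 1, and JAK1, at 0.19 (adjusted p = 0.688), or 0.30 without knockdown replicate 2 and 0.012 without knockdown replicate 3. Likewise, none of the 16 retained of 17 negative regulators was called, a list of further SOCS genes, phosphatases and PIAS genes in which PIAS3 had a log2 fold change of 0.32 (adjusted p = 0.284) and PTPN6 one of 0.27 (adjusted p = 0.349). SOCS3 did not pass the filter. Of 16 receptor-proximal adaptors, 15 were matched and retained and none was called, with GAB1 at -0.65 (adjusted p = 0.254), or -0.38 without control replicate 1, and IRS2 at -0.40 (adjusted p = 0.334).

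Of 14 other genes known as STAT5 targets, 13 were retained and 1 was called. CCND2, which encodes cyclin D2, read 10.05, 9.32 and 8.95 in control replicates 1 to 3 and 7.93, 6.70 and 6.69 in knockdown replicates 1 to 3. It fell by 2.33 on the log2 scale (SE 0.38), or 5.03-fold, with limma's adjusted p = 0.0250. The groups did not overlap, and in both the replicate numbered 1 was the highest, and with the replicate block adjusted p was 0.00108. CCND2 was called in 9 of 17 alternatives. The call was lost with the processed signal (limma adjusted p = 0.0596), without a filter (0.0840) and with an intensity trend and robust prior (0.0766). It was also lost without control replicate 1 (0.0589) or 2 (0.0956) and without knockdown replicate 2 (0.109) or 3 (0.124). With the slide row as a term, on 1 control array, the log2 fold change of CCND2 was -1.84. The transferrin receptor TFRC had a log2 fold change of -0.55 (adjusted p = 0.425, and 0.0491 with the block), or -0.27 without knockdown replicate 1. The median over the 13 genes was -0.02, with 8 lower and 5 higher.

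**Figure D5:**
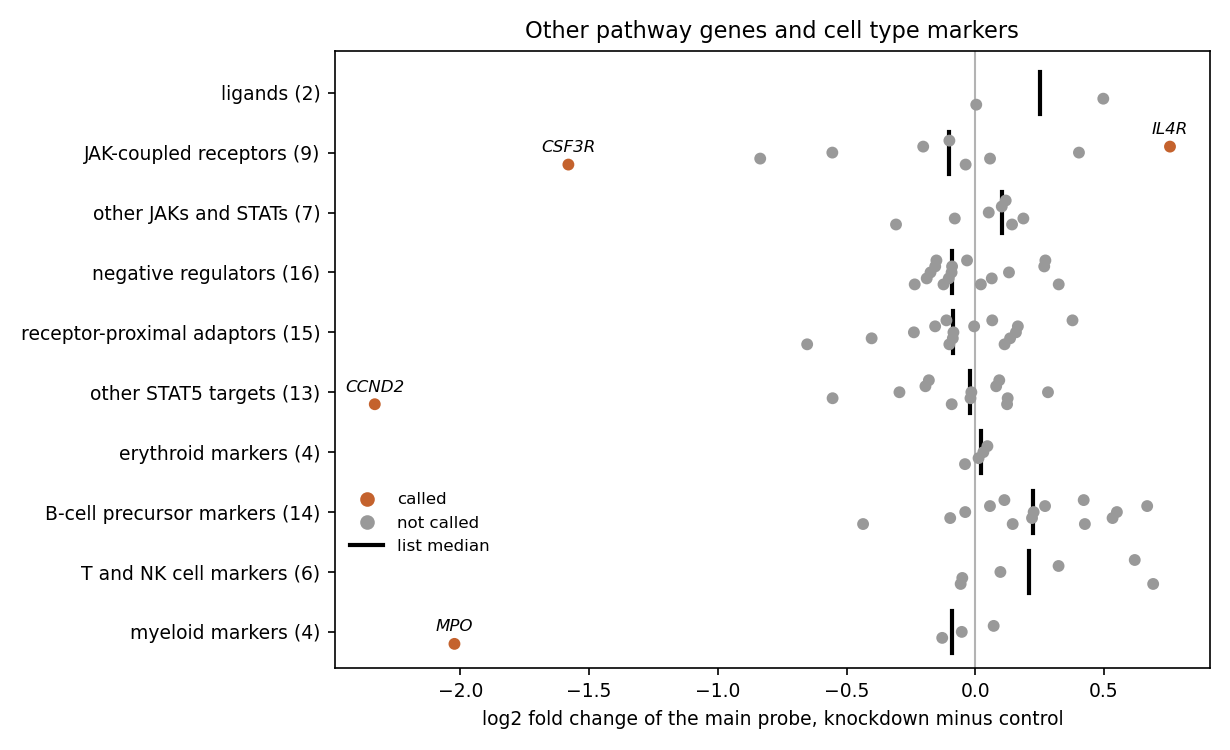
Log2 fold change, knockdown minus control, of the main probe of each retained gene in the pathway and cell type lists, 1 list a line, with called genes marked and a bar at the median of each list. IL2RG is not marked since its call is on its other probe, and the medians of the lists lie between -0.10 and 0.25.

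The marker lists of cell types were read in the same fit. Erythroid markers, of interest since EPOR acts foremost in red cell precursors, passed the filter for 4 of 13 genes, with log2 fold changes from -0.04 to 0.05 and none called. GATA1, HBB, HBA2, AHSP, GYPB, EPB42 and TAL1 did not pass, and the largest differences were those of HBG1 (0.05) and ALAS2 (-0.04). B-cell precursor markers passed for 14 of 15, with 11 higher and 3 lower in the knockdown and none called, and their summed linear level ran from 285834 to 290448 in the controls and from 312624 to 376529 in the knockdown. CD22, a B-cell surface receptor, had a log2 fold change of 0.67 (adjusted p = 0.0541, and 0.0265 with the block) and CD79B, a chain of the B-cell receptor complex, one of 0.55 (adjusted p = 0.166, and 0.0367 with the block). IGLL1, a part of the surrogate light chain of pre-B cells, gave 0.53 on its main probe (adjusted p = 0.174, and 0.0379 with the block) and 0.68 on another (adjusted p = 0.221, and 0.0132 with the block). The groups did not overlap for 6 of the higher genes and for 1 of the lower ones, RAG2, a part of the V(D)J recombinase (-0.44, adjusted p = 0.191), beside 18.9% of all probes. VPREB1 did not pass the filter.

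Of 8 T and NK cell markers, 6 were retained and none was called, with summed levels, most of them from CD4 (log2 fold change 0.10, adjusted p = 0.713), from 5525 to 5857 in the controls and from 6086 to 6293 in the knockdown. CD2 had a log2 fold change of 0.69 (adjusted p = 0.538), or 0.16 without knockdown replicate 2, and NKG7 one of 0.62 (adjusted p = 0.137). Of 8 myeloid markers, 4 were retained and 1 was called, MPO, the myeloperoxidase of granules, which fell by 2.02 on the log2 scale (limma adjusted p = 0.00107), from 14.02, 13.97 and 13.86 to 12.30, 11.68 and 11.81. The summed level of the 4, most of it from MPO, ran from 15406 to 17112 in the controls and from 3737 to 5593 in the knockdown. The other 3 retained markers, CD14 (-0.13), CSF1R (-0.05) and ITGAM (0.07), overlapped between groups and were not called. CD33, ELANE and FCGR3A did not pass the filter, and LYZ was not matched. The part of these shifts in the changes of SOCS2, STAT5A and CSF3R was not tested.

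Finally, the genes whose values ran most like those of the receptor and of the called members were listed by Pearson's r over the 6 arrays, among 13606 gene symbols, as a description. For EPOR these were CUL3 (r = 0.966), TTC5 (r = 0.966) and GATD1 (r = 0.951), with log2 fold changes from -0.04 to 0.01 and none called. For STAT5A they were ATG14 (r = 0.992), CNTLN (r = 0.991) and MRPL53 (r = 0.991), with log2 fold changes from -0.31 to -0.19 and none called. For SOCS2 they were EEF1AKMT2 (r = 0.999), ATP6V0A4 (r = 0.998) and EFNA1 (r = 0.998). Of these, ATP6V0A4 fell by 2.77 (limma adjusted p = 0.000113) on the log2 scale, EFNA1 fell by 2.29 (adjusted p = 0.000237), and EEF1AKMT2 had a log2 fold change of -0.44 (adjusted p = 0.0553). The 6 arrays fall in 2 groups, so that genes with a difference between the groups share it in r.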

How the data were processed

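Per the labels, total RNA of REH cells was labelled with Cy3. The authors extracted spot intensities with Agilent Feature Extraction 10.7.1.1, per the file headers, and the deposited intensity values were not normalized between arrays. A deposited table of log2 values for 27869 probes, made by VSN, background subtraction and a filter on negative controls, per the methods, served as an alternative. Probes carry the hg19-based annotation of the array design.

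Here, the VSN model (affine calibration and inverse hyperbolic sine, 0.9 quantile of least squares) was written anew, since the package was not used, and fitted to raw median intensities of the 61537 non-control spots. Outlier spots were left out and no spot was saturated. From the 308 negative control spots, the 0.95 quantile times 1.1 set the threshold, and probes were retained when over it, on the normalized scale, on at least 2 of 3 arrays of a group. The test of knockdown against control used lmFit and eBayes of limma 3.58.1 (R 4.3.3), two-sided and with no block, with Benjamini-Hochberg adjustment. The fit was tested on simulated data. For 65 retained probes a value was missing on an array, and these were fitted on the others.

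RefSeq accessions without version were matched to a RefSeq gene table, which named 25728 of 34134 catalogue probes (75.4%). Promoter windows are those of RefSeq, GRCh38.p14. Named are the 7 members, genes with a called probe in each list, the 2 genes of each list with the largest difference at the main probe, and the 3 symbols most like EPOR and each called member. SOCS2-AS1 and a few genes beside these were chosen after their values were seen, and members and lists were chosen with earlier results of these data known. A gene of the receptor list is not reported here and was left out of the counts. Deviations from the group mean correlated at 0.426, 0.287 and 0.204 between samples with the same replicate number in the labels and from -0.331 to 0.187 between unlike numbers. As each same-number value was over 0.1, the numbers were taken to pair the samples, although the highest value between unlike numbers was over 0.1 too. The pairing is thus uncertain. Calls rest on the fit without a block, and the fit with the replicate number as a block is given where it changes a call.

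Alternatives were the processed signal, normexp with quantile normalization, the deposited table, spike-in scaling, other filters, an intensity trend with robust prior, the replicate block, averaged probes and leaving out each array. The slide row as a term and a filter threshold on the raw scale were added after seeing the data. The number of arrays limits the precision.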

Additional observations from a re-analysis of the deposited data

How the results depend on the processing

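SOCS2 was called lower under all 17 alternatives, and STAT5A, CISH and STAT5B kept their direction under all of them. The number of probes called, 478, became 980 with spike-in scaling, 224 without a filter, 1038 with the replicate block and 227 with the slide row as a term, and ran from 191 to 553 when 1 array was left out. Of the 7 members, 2 were called, against 1 with the processed signal, spike-in scaling, no filter or the slide row, 3 with the replicate block (CISH added) or the scanner flag as filter, and 1 to 2 when 1 array was left out. STAT5A was lost in 4 of these 6 runs. For the other pathway lists, 4 probes were called, against 1 with the processed signal, 1 without a filter, 2 with the raw-scale threshold, 2 with intensity trend and robust prior, 6 with the replicate block, 0 with the slide row and 0 to 3 when 1 array was left out. With the slide row as a term 1 control array carries the contrast. The sign turned for EPOR (0.069 with the processed signal, 0.30 with spike-in scaling, and a range of -0.12 to 0.039 when 1 array was left out, above 0 without control replicate 1 or 3 or knockdown replicate 1 or 2) and for JAK2 (0.030 and 0.25 with the same scalings). Spike-in scaling rests on those of the 10 spike-in probes whose mean was over the mean filter threshold, and raised the median of all probes by 0.32. It also gave the 7 members 1 common SE (0.237), and the calls that were lower were 179 of 980, against 352 of 478. The causes were not tested.

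The replicate block changed no call among EPOR, JAK2, STAT5A, STAT5B, SOCS2 and PIM1 (adjusted p for STAT5A 0.0361). With 1 probe and 1 spot for each gene, no second probe stands behind any of these values. The generalised log2 scale compresses differences at low intensity, and how far this touches CISH was not tested. Its log2 fold change of -0.48 became -0.50 with the processed signal and -0.35 with normexp and quantile normalization.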
